A study of Homo sapiens with 12 samples.

Results

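The 9 genes described here encode enzymes of heme and heme A synthesis. They were taken by gene symbol (ALAS1, ALAD, UROS, UROD, CPOX, PPOX, FECH, COX10 and COX15) from a table of 58735 genes, by a rule that names symbols only. All 9 were among the 16891 genes with enough counts to be tested, and their counts ranged from 386 (FECH) to 5683 (UROD) per library. RNA-seq was performed on FDX2-iKO cells made from ES2, an ovarian cancer line of human origin. Their endogenous FDX2 gene was knocked out by CRISPR-Cas9, and an HA-tagged, editing-resistant FDX2 was kept on by doxycycline (Doxy) through the TetON system. FDX2 is a mitochondrial ferredoxin of the iron-sulfur cluster assembly complex, so that Doxy withdrawal removes it. There were 4 conditions with 3 libraries each, 12 in all. Cells in 20% O2 + Doxy and 20% O2 wo Doxy were cultured for 6 days at 20% O2. Cells in 3% O2 + Doxy and 3% O2 wo Doxy were cultured for 4 days at 20% O2 and then for 3 days at 3% O2. The knockout and the TetON transgene were thus shared by all 4 conditions. The iKO cells are clonal. Clone 1 was the study's default, and no clone was named for RNA-seq itself. An effect of Doxy itself cannot be told apart from that of FDX2-HA here, nor oxygen from the longer culture of the 3% O2 cells (7 days in all). The study describes its RNA-seq replicates as biological.

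Heme is built in a series of steps that begins and ends in mitochondria. ALAS1 makes 5-aminolevulinic acid from glycine and succinyl-CoA and is the rate-limiting enzyme outside the erythroid lineage, where heme itself represses it. ALAD, UROS and UROD act in the cytosol, CPOX and PPOX oxidize the porphyrinogens in mitochondria, and FECH, which carries an iron-sulfur cluster, inserts iron to give heme. COX10 then farnesylates heme to heme O and COX15 oxidizes heme O to heme A, the cofactor of cytochrome c oxidase. COX15 takes its electrons from a ferredoxin.

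Libraries of 24958386 to 34313637 counts (median 29621780) were obtained. Libraries of one condition did not always match each other. The mean chi-square per gene between a pair of replicates, which is about 1 when only read sampling separates them, was 2.51 to 3.26 in 20% O2 wo Doxy, but 19.6 and 37.5 between replicate 1 and the other 20% O2 + Doxy libraries, 28 and 34 for replicate 3 of 3% O2 + Doxy, and 30.7 and 33.1 for replicate 1 of 3% O2 wo Doxy. No pair agreed within sampling noise. FDX2 had 2 to 13 counts per library and was not tested, and 70.9% of its exonic bases are shared with other annotated genes, so its loss could not be checked on these counts. Of the markers fixed for the line, the 4 reported here (KRT8, KRT18, VIM and CD44) were all detected and summed to 3264 to 5764 CPM (counts relative to the scaled library total). The sum was lowest in 20% O2 wo Doxy (3264 to 3377 CPM). None of 9 erythroid genes exceeded 2 counts in a library and 4 of them were at 0 in all 12, and none of 4 hepatocyte genes exceeded 6 counts.

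On GRCh38, ALAS1 (ENSG00000023330) lies at chr3:52198086-52214327 on the plus strand and ALAD (ENSG00000148218) at chr9:113386317-113401333 on the minus strand. UROS (ENSG00000188690) lies at chr10:125784980-125823285 (minus), UROD (ENSG00000126088) at chr1:45012147-45015575 (plus) and CPOX (ENSG00000080819) at chr3:98579446-98593723 (minus). PPOX (ENSG00000143224) lies at chr1:161166410-161178013 (plus), FECH (ENSG00000066926) at chr18:57548283-57586772 (minus), COX10 (ENSG00000006695) at chr17:14069496-14208677 (plus) and COX15 (ENSG00000014919) at chr10:99711844-99732100 (minus). Reads were assigned over exons, and 6 members share no exonic base with another gene. COX15 shares 25.6% of its exonic bases with AL133353.2 on the same strand, PPOX shares 24.3% with B4GALT3 on the opposite strand, and CPOX shares 5% with AC021660.3. Values of COX15 and PPOX are therefore less certain, since the strand setting of the counting was not stated.

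RefSeq promoter windows (GRCh38.p14) were found for 8 of the 9 members, but not for UROS. Below are the 250 bases before the start of ALAS1 and COX15, the enzymes whose mRNA was higher after FDX2 loss at 20% O2, and of FECH and COX10, which act beside them and passed no test in that comparison. The sequences are written 5′ to 3′ on the strand of the gene, with matches to the searched motifs in capitals. The choice of these 4 was made with the values known.
ALAS1, chr3:52197833-52198082, strand +: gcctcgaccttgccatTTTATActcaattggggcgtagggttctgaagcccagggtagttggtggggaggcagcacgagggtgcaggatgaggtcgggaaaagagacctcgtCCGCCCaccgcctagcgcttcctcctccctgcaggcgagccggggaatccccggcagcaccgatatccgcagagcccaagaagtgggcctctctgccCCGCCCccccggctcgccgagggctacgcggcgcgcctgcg
FECH, chr18:57586703-57586952, strand -: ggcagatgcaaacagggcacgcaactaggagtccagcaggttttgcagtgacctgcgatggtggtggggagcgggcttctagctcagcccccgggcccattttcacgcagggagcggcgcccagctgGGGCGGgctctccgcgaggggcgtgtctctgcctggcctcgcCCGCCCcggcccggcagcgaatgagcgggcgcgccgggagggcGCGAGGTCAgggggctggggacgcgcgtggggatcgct
COX10, chr17:14069254-14069503, strand +: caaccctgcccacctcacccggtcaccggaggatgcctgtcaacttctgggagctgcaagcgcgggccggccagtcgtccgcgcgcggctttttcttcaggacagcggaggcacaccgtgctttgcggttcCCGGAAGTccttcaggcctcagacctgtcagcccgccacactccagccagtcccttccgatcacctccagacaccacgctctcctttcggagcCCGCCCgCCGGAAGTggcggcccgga
COX15, chr10:99732128-99732377, strand -: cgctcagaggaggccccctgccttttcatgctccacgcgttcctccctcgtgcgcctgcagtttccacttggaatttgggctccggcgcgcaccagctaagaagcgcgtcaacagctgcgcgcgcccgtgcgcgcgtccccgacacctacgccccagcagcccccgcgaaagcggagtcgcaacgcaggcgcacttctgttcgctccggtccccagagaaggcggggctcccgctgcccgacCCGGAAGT

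For comparison, 6 motifs were searched on both strands, and no matches overlap in these 4 windows. CCGGAAGT, a site of the ETS factor GABPA, was present in COX10 (2 matches, at 119 to 112 and 19 to 12 bases before the start) and COX15 (1 match, at 8 to 1 bases), the 2 heme A enzymes, and in none of the other members with a window. Of 35116 promoter windows of this length, 3.42% held it. GGGCGG, the GC box, was in 7 of the 8 members and in 42.6% of all windows. ACGTG, the core of the hypoxia response element, was found in CPOX and in 1 of 2 PPOX windows, against 18.5% of all windows. TATAAA was found only in ALAS1 among these members, 234 to 229 bases before the start (10.7% of all windows), and TGACNNNGC, the core of the antioxidant response element, only in FECH at 38 to 30 bases (10.9%). A site of the factor NRF1 (GCGCA, any base, then GCGC) was in none of the 8 members and in 5.07% of all windows. The ALAS1 window ends in gcgcctgcg, which reads as this site on the other strand without its last letter. A site across the window's end was not searched. Each is a match of letters, and a match outside these windows was not searched. Positions count from the RefSeq start, which differs from the gene bounds given above. The FECH and COX10 windows reach into those genes, and the TGACNNNGC match of FECH lies inside the gene as annotated.

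The mRNAs differed far more between enzymes than between conditions. Per kilobase of exon, UROD was the most abundant at 57.3 CPM per kb in 20% O2 + Doxy (range 53.6 to 62.5). CPOX (19.8 CPM per kb) and ALAS1 (19.5) followed, with overlapping libraries. COX15 (6.94), UROS (6.83) and COX10 (6.18 CPM per kb) came next, each overlapping its neighbour, and then ALAD (5.35). PPOX (3.93) and FECH (3.88 CPM per kb) were lowest and also overlapped. ALAS1, the first enzyme, thus stood near the top of the order and FECH, the last of heme synthesis, at its bottom. Without Doxy at 20% O2 the order changed at its top, where ALAS1 (27.4 CPM per kb, range 26.9 to 27.9) stood clear of CPOX (17.4, range 17.1 to 17.6). The length used covers every annotated transcript, and it is largest for UROS (9532 bases), which lowers its value per kb. From the lowest to the highest condition mean, ALAS1 spanned 1.41-fold, PPOX 1.32-fold, CPOX 1.26-fold and COX15 1.22-fold. The other members spanned 1.11-fold (COX10) to 1.17-fold (FECH).

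**Figure D1:**
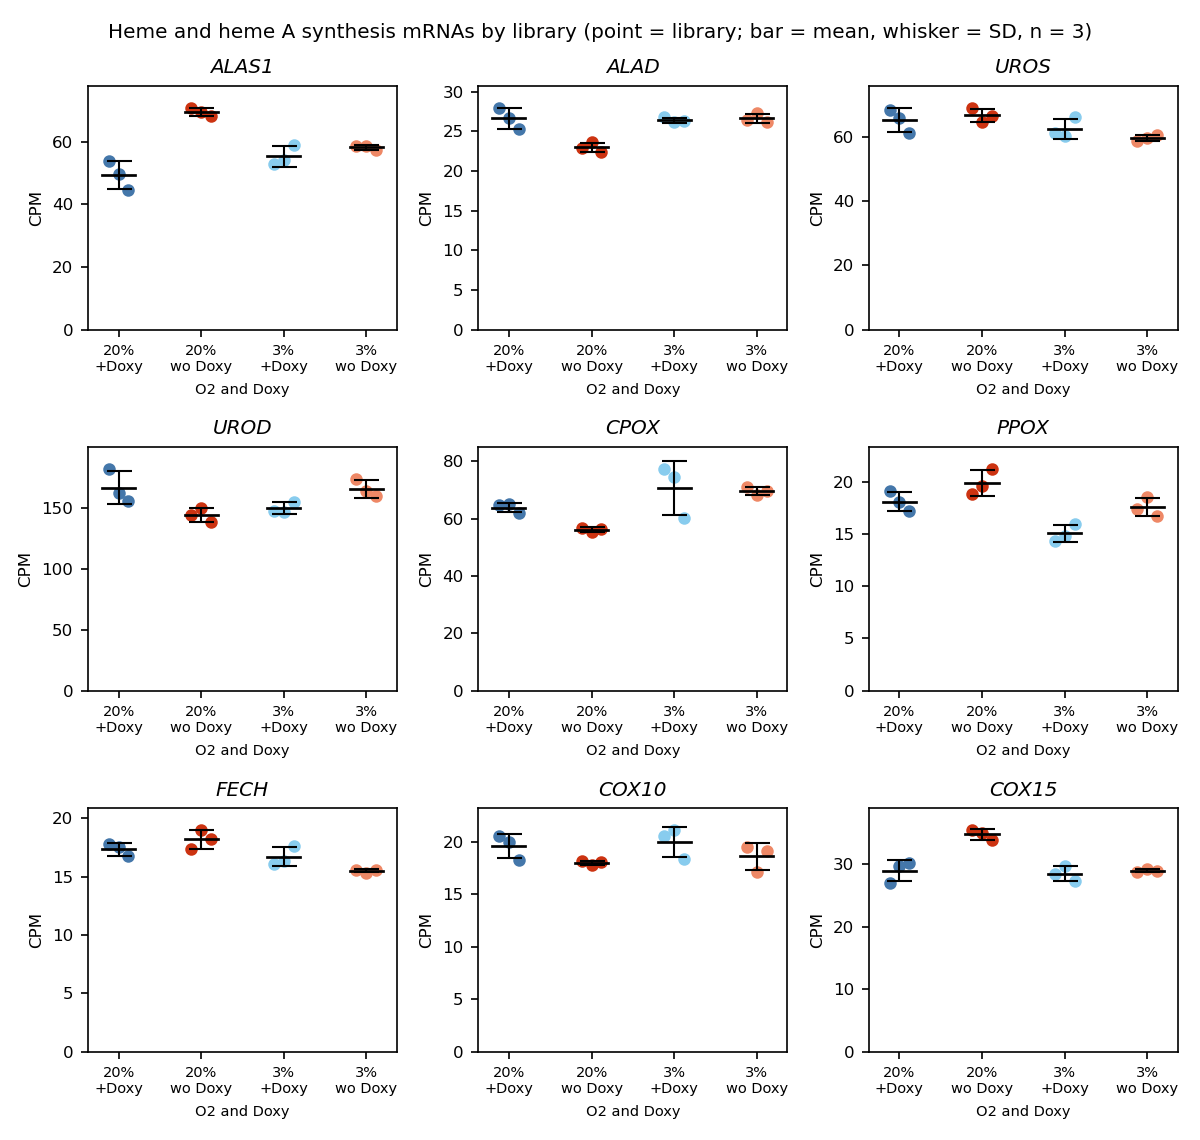
Level of each of the 9 mRNAs in CPM (y axis from 0) in every library by condition (x axis), with 1 point per library, a bar at the mean and whiskers of 1 SD (n = 3). ALAS1 was highest in 20% O2 wo Doxy (68.3 to 70.7 CPM) and lowest in 20% O2 + Doxy (44.6 to 53.8 CPM), and COX15 was highest in 20% O2 wo Doxy (33.8 to 35.4 CPM).

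To ask how FDX2 loss affects these genes under ambient oxygen, 20% O2 wo Doxy was compared with 20% O2 + Doxy. ALAS1 and COX15 rose, ALAD and UROD fell, and the other 5 enzymes did not pass the test. The 4 called of 9 compare with 35.3% of all tested genes called in this comparison, and 2 members were higher (17.6% of all genes) and 2 lower (17.7%). Members' median log2 fold change was 0.03, and that of all tested genes was 0.01. In bulk RNA a change in every cell cannot be told apart from one in the share of cells that express the gene, nor fewer cells from less RNA per cell.

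ALAS1, the enzyme of the first step, had 53.8, 49.8 and 44.6 CPM with Doxy and 70.7, 69.7 and 68.3 CPM without it. The lowest library without Doxy thus lay above the highest with Doxy. The means were 49.4 ± 4.59 and 69.6 ± 1.21 CPM (SD, n = 3 each), a 1.41-fold increase (log2 fold change 0.50, SE 0.069, 95% interval 0.34 to 0.65, adjusted p = 0.00025). It was called in each of the 6 fits that left out 1 library (log2 fold change 0.42 to 0.55). COX15, the heme A synthase, was at 27.0, 29.7 and 30.2 CPM with Doxy and at 35.4, 35 and 33.8 CPM without it. Its conditions did not overlap either, and it rose 1.20-fold (log2 fold change 0.26, SE 0.056, adjusted p = 0.00419). COX15 was also called in all 6 fits that left out 1 library.

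ALAD, which joins 2 molecules of 5-aminolevulinic acid into porphobilinogen, was at 27.9, 26.7 and 25.3 CPM with Doxy and at 22.9, 23.7 and 22.4 CPM without it. All libraries without Doxy were lower, and ALAD fell by 13.7% (log2 fold change -0.21, SE 0.052, adjusted p = 0.00828). UROD, which decarboxylates uroporphyrinogen, was at 181.7, 162.4 and 155.7 CPM with Doxy and at 144.5, 150.1 and 138.7 CPM without it. It too did not overlap and fell by 13.3% (log2 fold change -0.21, SE 0.064, adjusted p = 0.0279). UROD lost its call without 20% O2 + Doxy replicate 1, without 20% O2 wo Doxy replicate 1 and without 20% O2 wo Doxy replicate 3 (largest adjusted p = 0.0738). ALAD kept it in all 6 such fits.

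For UROS, which closes the porphyrin ring, the log2 fold change was 0.03 (95% interval -0.09 to 0.16, adjusted p = 0.68). FECH, which carries an iron-sulfur cluster, had 17.8, 17.5 and 16.7 CPM with Doxy and 17.3, 19.0 and 18.2 CPM without it. The libraries overlapped, and the log2 fold change was 0.07 (95% interval -0.06 to 0.20, adjusted p = 0.4). PPOX stood at 0.13 (adjusted p = 0.166). CPOX and COX10 did not overlap between conditions but missed the threshold, with log2 fold changes of -0.18 (adjusted p = 0.0968) and -0.12 (adjusted p = 0.227). In all, 6 of 9 members did not overlap, and 52.3% of all tested genes did not.

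**Figure D2:**
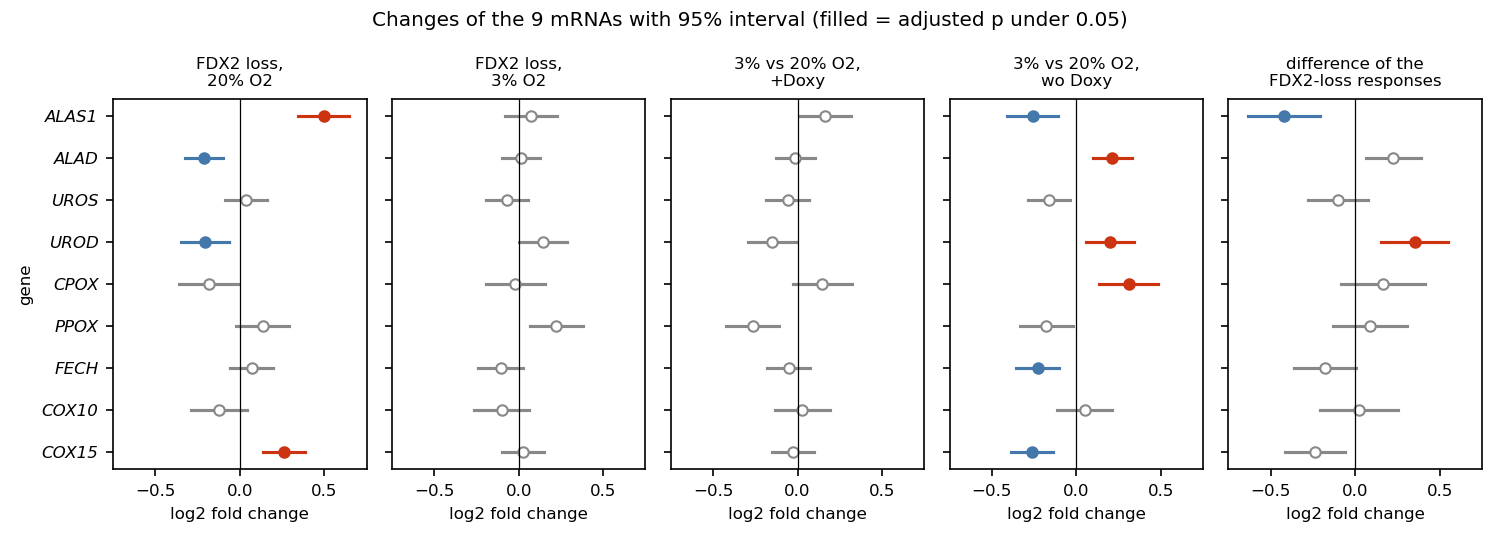
Log2 fold change (x axis) of each member (y axis) in the 5 comparisons, with its 95% interval. Filled points are called at an adjusted p under 0.05 (red higher, blue lower) and open grey points are not: 4 members are filled for FDX2 loss at 20% O2, none for FDX2 loss at 3% O2 or for oxygen with Doxy, 6 for oxygen without Doxy and 2 (ALAS1 and UROD) for the difference of the FDX2-loss responses.

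Fold changes of all genes moved with the GC content of their transcripts. For FDX2 loss at 20% O2 the median log2 fold change was 0.07 in the lowest of 4 equal bins of GC content (up to 43.6%) and -0.14 in the highest (from 56.2%). For 3% against 20% O2 without Doxy it ran the other way, from -0.10 to 0.33. Members' GC contents lay between 48.1% (COX15) and 57.5% (PPOX), with ALAD at 56.9% and UROD at 55.6%. Each comparison was therefore repeated with the trend against GC content taken out of every library, an alternative chosen after the data were seen. At 20% O2, ALAS1 (log2 fold change 0.56, adjusted p = 4.6e-07) and COX15 (0.27, adjusted p = 0.000484) then remained higher. ALAD (-0.08, adjusted p = 0.419) and UROD (-0.09, adjusted p = 0.203) were no longer called, and PPOX, which makes protoporphyrin, was called higher (0.28, adjusted p = 0.00732). This gave 3 members higher and 0 lower. The correction also raised the number called among all 16891 tested genes. It went from 5961 to 7757 for FDX2 loss at 20% O2 and from 1235 to 3051 at 3% O2. For oxygen it went from 341 to 1194 with Doxy and from 4360 to 5584 without it. For the difference of the responses it went from 1231 to 2993. Counts under GC correction in this report stand beside these, not beside the uncorrected shares.

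Next, FDX2 loss was examined at 3% O2. None of the 9 members was called, where 7.31% of all tested genes were (4.2% higher and 3.11% lower). At an unadjusted p under 0.05 there were 2 members, and DESeq2's Wald test also called 0. Members' median log2 fold change was 0.01, against 0.04 for all tested genes. ALAS1 had 52.8, 54.2 and 59.1 CPM with Doxy and 58.6, 58.7 and 57.3 CPM without it. These libraries overlapped, and the log2 fold change was 0.07 (95% interval -0.08 to 0.22, adjusted p = 0.566). COX15 stood at 0.03 (95% interval -0.10 to 0.15) and ALAD at 0.01 (95% interval -0.10 to 0.13). The sign of the ALAD value turned under several alternatives. PPOX had 14.4, 14.8 and 16 CPM with Doxy and 17.4, 18.5 and 16.8 CPM without it. It did not overlap, but its log2 fold change of 0.22 missed the threshold (SE 0.071, adjusted p = 0.087). UROD (0.15, adjusted p = 0.205) and FECH (-0.11, adjusted p = 0.304) also did not overlap, which makes 3 members, against 24.6% of all genes. Correction for GC content left the count of called members at 0.

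Whether the response to FDX2 loss differed between oxygen levels was tested directly. ALAS1 responded less at 3% O2, with a difference of log2 fold changes of -0.42 (SE 0.097, 95% interval -0.64 to -0.21, adjusted p = 0.0258). UROD differed in the opposite direction, by 0.35 (SE 0.091, 95% interval 0.15 to 0.55, adjusted p = 0.0417). The other 7 members were not called, and 7.29% of all tested genes were called (3.21% higher and 4.08% lower). Among these 7 members, COX15 (-0.24, adjusted p = 0.103) and ALAD (0.23, adjusted p = 0.0916) had 95% intervals that did not hold 0. The ALAS1 call was lost without 20% O2 + Doxy replicate 2, 3% O2 wo Doxy replicate 2 or 3% O2 wo Doxy replicate 3 (largest adjusted p = 0.065), and stood in the other 9 fits. With the replicate number as a block in all 12 libraries neither ALAS1 (-0.42, adjusted p = 0.0665) nor UROD (0.35, adjusted p = 0.0765) was called. UROD was called in 2 of the 12 fits that left out 1 library, those without 20% O2 + Doxy replicate 3 and without 3% O2 + Doxy replicate 3. With GC content corrected, ALAS1 differed by -0.48 (adjusted p = 0.000185) and UROD no longer passed (0.22, adjusted p = 0.0776). FECH (-0.20, adjusted p = 0.0434) and COX15 (-0.22, adjusted p = 0.0371) were then called.

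The effect of low oxygen in cells that keep FDX2 was measured between the + Doxy conditions. No member was called, and 2.02% of all tested genes were (1.63% higher and 0.385% lower). At an unadjusted p under 0.05 there were 3 members, and DESeq2's Wald test also called 0. PPOX came nearest, with 19.1, 18.1 and 17.2 CPM at 20% O2 and 14.4, 14.8 and 16 CPM at 3% O2. It did not overlap, and its log2 fold change was -0.27 (SE 0.071, adjusted p = 0.0945). UROD (-0.15, adjusted p = 0.331) did not overlap either, so that 2 members did not, against 15.4% of all genes. ALAS1 stood at 0.16 (95% interval 0.01 to 0.32, adjusted p = 0.33). CPOX, the oxygen-requiring coproporphyrinogen oxidase, had 77.3, 74.7 and 60.1 CPM at 3% O2 and 64.7, 65.0 and 62.0 CPM at 20% O2. Replicate 3 of 3% O2 + Doxy was its low library, and without it CPOX was called higher (log2 fold change 0.25). With GC content corrected, ALAS1 was higher (0.15, adjusted p = 0.0446) and PPOX lower (-0.29, adjusted p = 0.0371).

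In cells without Doxy, 3% O2 and 20% O2 were compared in the same way. This comparison shares its 20% O2 wo Doxy libraries with that of FDX2 loss at 20% O2, so the values below are not a separate measurement of that condition. CPOX, ALAD and UROD were higher at 3% O2, and COX15, ALAS1 and FECH were lower. The 6 called of 9 compare with 25.8% of all tested genes (13.9% higher and 11.9% lower), and the 8 members that did not overlap with 49.4%. Members' median log2 fold change was -0.16, and that of all tested genes was 0.07.

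COX15 was at 28.7, 29.2 and 28.9 CPM at 3% O2, all below the 33.8 to 35.4 CPM at 20% O2, and fell by 16.7% (log2 fold change -0.26, SE 0.057, adjusted p = 0.00694). ALAS1 was at 58.6, 58.7 and 57.3 CPM at 3% O2, below the 68.3 to 70.7 CPM at 20% O2, and fell by 16.4% (log2 fold change -0.26, SE 0.069, adjusted p = 0.0191). FECH was at 15.6, 15.3 and 15.6 CPM at 3% O2 and at 17.3, 19.0 and 18.2 CPM at 20% O2. The terminal enzyme thus did not overlap and fell by 14.7% (log2 fold change -0.23, SE 0.059, adjusted p = 0.0165). COX15 was called in all 6 fits that left out 1 library. ALAS1 lost its call without 3% O2 wo Doxy replicate 2 or replicate 3 (largest adjusted p = 0.0618), and FECH without replicate 2 of either condition (largest adjusted p = 0.0636).

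CPOX was at 71.0, 68.3 and 69.8 CPM at 3% O2 and at 56.8, 55.4 and 56.5 CPM at 20% O2, a 1.24-fold increase (log2 fold change 0.31, SE 0.08, adjusted p = 0.0171). ALAD rose 1.16-fold (log2 fold change 0.21, adjusted p = 0.0133) and UROD 1.15-fold (0.20, adjusted p = 0.043). Each was above the whole 20% O2 range in all 3 libraries. These 3 calls were less stable than that of COX15. CPOX lost its call without any one of the 20% O2 wo Doxy libraries (largest adjusted p = 0.079), and ALAD lost its call without 20% O2 wo Doxy replicate 1 or 3 or 3% O2 wo Doxy replicate 2 (largest adjusted p = 0.0685). UROD was called in none of the 6 fits (log2 fold change 0.16 to 0.23, largest adjusted p = 0.149). UROS (-0.16, adjusted p = 0.0581) and PPOX (-0.18, adjusted p = 0.0874) did not overlap but missed the threshold, and COX10 stood at 0.05 (95% interval -0.12 to 0.21).

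Replicate numbers were taken as pairs in this comparison, from the data and not from the labels. With the replicate number as a block in these 6 libraries, UROS was also called lower (-0.17, adjusted p = 0.0374), which gave 3 members higher and 4 lower. With the block in all 12 libraries UROD was not called (adjusted p = 0.0642). With GC content corrected, 0 members were higher and 5 lower (PPOX -0.39, ALAS1 -0.33, FECH -0.27, COX15 -0.25 and UROS -0.22). ALAD stood at 0.02, UROD at 0.05 and CPOX at 0.22 (adjusted p = 0.136). With both the correction and the block, CPOX was called higher (0.22, adjusted p = 0.0125) beside the same 5 lower members. In these 6 libraries 16357 genes were tested. Of these, 5081 were called with the block and 4720 with the block and GC correction. Counts under the block in the lists below stand beside these, not beside the shares of the reported fit.

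Genes that surround the pathway were described from 4 lists. Of 21 genes of heme transport and breakdown, FDX2 loss at 20% O2 raised 5 and lowered 6, with a median log2 fold change of -0.06 (all tested genes 0.01). Of all tested genes, 17.6% were called higher and 17.7% lower there. HMOX1, the inducible heme oxygenase that degrades heme, rose from 8.29 ± 1.66 to 18.3 ± 0.503 CPM (SD, n = 3 each, log2 fold change 1.14, adjusted p = 0.000131). SLC48A1, a heme transporter of the lysosome (0.55), and BLVRB, a biliverdin reductase (0.45), also rose. ABCB10, an inner-membrane transporter of mitochondria linked to heme synthesis, fell from 49.2 ± 1.08 to 30.9 ± 0.968 CPM (-0.67, adjusted p = 1.78e-05). HMOX2, the constitutive heme oxygenase (-0.39), and ABCG2, a porphyrin exporter (-0.31), were lower as well. These 6 genes were called in each of the 6 fits that left out 1 library, and with GC content corrected the list had 6 higher and 6 lower.

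At 3% O2 none of the 21 was called for FDX2 loss (7.31% of all tested genes were), with 5 at an unadjusted p under 0.05, 1 called with DESeq2's size factors, and 2 higher and 2 lower with GC content corrected. HMOX1 stood at 0.54 there (adjusted p = 0.051). ABCB10 responded differently at the 2 oxygen levels (difference 0.51, adjusted p = 0.00719), and for HMOX1 the difference of -0.60 did not pass (adjusted p = 0.103) unless GC content was corrected (-0.89, adjusted p = 0.000121). Oxygen with Doxy moved none of the 21 past the threshold, where 2.02% of all genes passed it (4 at an unadjusted p under 0.05, and 0 called with DESeq2's size factors or GC correction). Without Doxy, 3 were higher and 3 lower at 3% O2, against 13.9% and 11.9% of all tested genes. With the replicate block in these libraries 5 were higher and 5 lower, with GC correction 3 and 4, and with both 3 and 5. The higher genes were ABCB10 (0.35), ABCG2 (0.30) and PGRMC1, a heme-binding partner of FECH (0.26). The lower genes were HMOX1 (-0.77), SLC48A1 (-0.41) and TMEM14C, a carrier of porphyrinogens in the inner membrane (-0.29). SLC48A1 was called in 1, TMEM14C in 3 and PGRMC1 in 5 of 6 fits that left out 1 library.

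Of 15 ferredoxin partners and factors of cytochrome c oxidase assembly, 1 was called higher and 1 lower for FDX2 loss at 20% O2, against 17.6% and 17.7% of all tested genes. With GC correction 2 were higher and 1 lower. In the reported fit, COX19, a copper-handling factor, was higher (0.20) and SCO1, a copper chaperone, was lower (-0.17), each in 3 of 6 fits that left out 1 library. The list's median log2 fold change was -0.0043. FDX1, the paralog of FDX2, stood at -0.0043 as well (adjusted p = 0.975), FDXR, the reductase of both ferredoxins, at -0.30 (adjusted p = 0.153), and SURF1, a factor of heme A insertion, at -0.0019 (adjusted p = 0.989). These 3 were chosen for their role. No gene of the list was called for FDX2 loss at 3% O2 or for oxygen with Doxy (2 and 1 at an unadjusted p under 0.05, and 0 called under GC correction or DESeq2's size factors). Without Doxy, COA6 (-0.50) and COX11 (-0.20), both copper-site factors, were lower at 3% O2, COA6 in 4 and COX11 in 1 of 6 fits that left out 1 library. That made 0 higher and 2 lower, against 13.9% and 11.9% of all tested genes. The replicate block in these libraries gave 0 higher and 4 lower of 14 tested, and 0 and 1 with GC correction as well.

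Of 8 genes for mitochondrial heme proteins, their partner subunits and their assembly, SDHC, a heme-binding anchor of succinate dehydrogenase, was higher after FDX2 loss at 20% O2. It rose from 159.4 ± 8.37 to 203.1 ± 1.61 CPM (log2 fold change 0.35, adjusted p = 0.000728). It was the only 1 of the 8 called there in the reported fit, and with GC correction 3 were higher and 0 lower (SDHC 0.37, MT-CO1 0.12 and MT-CO2 0.14). In this comparison 17.6% of all tested genes were called higher and 17.7% lower. At 3% O2 none was called for FDX2 loss, and none for oxygen with Doxy (2 at an unadjusted p under 0.05 in each, 0 called with DESeq2's size factors, and MT-CO2 called higher for oxygen with GC correction). Without Doxy, SDHC was lower at 3% O2 (-0.28, adjusted p = 0.00514) and MT-CYB, the cytochrome b of complex III, was higher (0.29, adjusted p = 0.047), the latter in 1 of 6 fits that left out 1 library. Of all tested genes, 13.9% were higher and 11.9% lower. With the replicate block in these libraries, alone or with GC correction, 1 of the 8 was higher and 3 were lower.

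Of 12 genes listed from general knowledge as regulators of ALAS1, FDX2 loss at 20% O2 raised 3 and lowered 4. Of all tested genes, 17.6% were higher and 17.7% lower. PPARGC1A, a coactivator of ALAS1 transcription, was the most changed and rose from 1.48 ± 0.168 to 4.30 ± 0.232 CPM (log2 fold change 1.53, SE 0.13, adjusted p = 8.14e-06). BACH1, a heme-binding repressor of HMOX1 (0.63), and FOXO1, a partner of PPARGC1A (0.55), rose too. The related coactivators PPARGC1B (-0.56) and PPRC1 (-0.44) and the transcription factor NRF1 (-0.53), which acts with these coactivators, fell. CLPP, a subunit of the mitochondrial ClpXP protease, was also lower (-0.38) and lost its call with GC content corrected (-0.15, adjusted p = 0.117). With that correction NR1D1, EGR1 and LONP1 were called higher, which gave 6 higher and 3 lower. Members of the list moved in both directions, and a link of any of them to the ALAS1 rise was not tested.

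At 3% O2, PPARGC1B was lower (-0.50, adjusted p = 0.00314) and FOXO1 higher (0.34, adjusted p = 0.0328) after FDX2 loss, FOXO1 in none of the 6 fits that left out 1 library. These are 1 higher and 1 lower of 12, against 4.2% and 3.11% of all tested genes. With GC content corrected 4 were higher and 3 lower there, and 3051 of all 16891 tested genes were then called. PPARGC1A stood at 0.46 (adjusted p = 0.057), and its response differed between the oxygen levels (-1.08, adjusted p = 0.0062). The response of BACH1 differed as well (-0.48, adjusted p = 0.0289), in 4 of 12 fits that left out 1 library. With Doxy, PPARGC1A was higher at 3% O2 (0.60, adjusted p = 0.0455), but in none of the 6 fits that left out 1 library and not with DESeq2's size factors (adjusted p = 0.0512). It was the only 1 of the 12 called, against 1.63% of all tested genes called higher, and GC correction gave 3 higher and 0 lower. Without Doxy, CLPP (0.40) and NRF1 (0.31) were higher at 3% O2, and PPARGC1A (-0.48), FOXO1 (-0.44) and BACH1 (-0.37) were lower. FOXO1 and BACH1 were called in 6, CLPP in 4, PPARGC1A in 3 and NRF1 in 2 of 6 fits that left out 1 library. The 2 higher and 3 lower compare with 13.9% and 11.9% of all tested genes. They became 4 and 3 with the replicate block in these libraries, 1 and 4 with GC correction, and 1 and 3 with both.

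Finally, the genes whose profile over the 12 libraries lay closest to that of ALAS1 and FECH were sought among 10525 genes. For ALAS1 these were STAT2, NPC1 and NIPAL3, with root mean square differences of 0.053, 0.055 and 0.060 on the log2 scale, where the median gene differed by 0.26. Their log2 fold changes for FDX2 loss at 20% O2 were 0.54, 0.53 and 0.38. For FECH they were ANXA7, CALCOCO2 and TEX2 (0.035, 0.037 and 0.037, median gene 0.19). The libraries and conditions are shared by all these profiles, so likeness is a description only.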

How the data were processed

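Poly(A) RNA of 12 libraries (4 conditions, 3 replicates each) was sequenced by the authors, and the submitters' processing notes name STAR, featureCounts, DESeq2 and GRCh38. The deposited values are raw counts per gene, not normalized or pooled. Versions of the aligner and counter, annotation and strand setting were not given in the sources used here, and the gene identifiers are those of GENCODE release 29.

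Tests used edgeR 4.0.16 and limma 3.58.1 under R 4.3.3. filterByExpr (minimum count 10, minimum total 15) kept 16891 of 32966 genes with a count. Libraries were TMM-scaled, and the 12 were fitted together by quasi-likelihood with a mean per condition (4), leaving 8 residual degrees of freedom. Genes were called at a Benjamini-Hochberg adjusted p under 0.05 over all tested genes. The script was tested on simulated data. CPM are TMM-scaled, ± is SD, and levels between genes are per kb of exon. With 3 replicates and a common biological variation of 16.3%, small changes can be missed. The p-values weigh a change against the spread between these libraries, estimated over all 4 conditions together.

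Members and gene lists were chosen with earlier results of these data known. One marker of the line is not reported here. Named were the 9 members, up to 6 called genes per list and comparison by size, and 3 genes most like ALAS1 and FECH (mean of at least 5 CPM). Alternatives were other filters, DESeq2 1.42.0 (its size factors or Wald test), the compared libraries only, a replicate block, a threshold of 0.01, each library left out and, chosen after seeing the data, GC correction.

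Deviations of same-numbered libraries from their condition means correlated at 0.19 to 0.497 between 20% O2 wo Doxy and 3% O2 wo Doxy. The 6 pairs of unlike number there gave -0.473 to 0.231, so the ranges overlap. Since all 3 pairs of like number were above 0.1, numbers were taken as pairs there from the data, not from the labels. In no other pair of conditions were all 3 above 0.1. Libraries of unlike number reached 0.603 between the + Doxy conditions and 0.663 between the 3% O2 conditions. Between 20% O2 + Doxy and 3% O2 wo Doxy they reached 0.586. These values exceed 0.497, so the pairing is uncertain.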

Additional observations from a re-analysis of the deposited data

Results flagged for a closer look

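For 2 members the response to FDX2 loss differed between 3% and 20% O2 in a direct test of the difference (edgeR's quasi-likelihood test, 12 libraries). ALAS1 had log2 fold changes of 0.50 at 20% O2 and 0.07 at 3% O2, a difference of -0.42 (adjusted p = 0.0258). UROD had -0.21 at 20% O2 and 0.15 at 3% O2, a difference of 0.35 (adjusted p = 0.0417). ALAS1 was higher without Doxy in 3 of 3 libraries at 20% O2 and overlapped at 3% O2. UROD did not overlap at either oxygen level. With 1 library left out, ALAS1 was called in 9 and UROD in 2 of 12 fits. With GC correction the differences were -0.48 (adjusted p = 0.000185) for ALAS1 and 0.22 (adjusted p = 0.0776) for UROD, and with the replicate block in all 12 libraries neither was called (adjusted p = 0.0665 and 0.0765). No explanation was tested.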

How the results depend on the processing

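ALAS1 and COX15 were higher and called for FDX2 loss at 20% O2 under each alternative tried. With 1 library left out, members called lower there ranged from 1 to 2. For oxygen with Doxy, members called higher ranged from 0 to 1. Without Doxy, 0 to 2 members were called higher and 1 to 3 lower, and for the difference of the responses 0 to 1 in each direction. A threshold of 0.01 left 1 member lower for FDX2 loss at 20% O2, 0 higher and 1 lower for oxygen without Doxy, and 0 and 0 for the difference. Without a filter on low counts, 1 was higher for oxygen without Doxy and 0 for the difference. With at least 10 counts in every library, 5 were lower for oxygen without Doxy. With GC correction, 0 were lower for FDX2 loss at 20% O2, 1 higher and 1 lower for oxygen with Doxy, 0 higher and 5 lower without Doxy, and 0 higher and 3 lower for the difference. With the replicate block in the compared libraries, 1 was lower for FDX2 loss at 20% O2, since ALAD lost its call (-0.21, adjusted p = 0.056). With block and GC correction 1 was higher and 5 lower for oxygen without Doxy. The block in all 12 libraries left 0 higher and 0 lower for the difference (ALAS1 -0.42, adjusted p = 0.0665, and UROD 0.35, adjusted p = 0.0765). The causes were not tested. The block changed no other member's call beyond those given in the report for oxygen without Doxy, the only comparison in which numbers were taken as pairs. The difference uses all 12 libraries, so no fit to fewer was made.

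Signs turned only for members that were not called. The log2 fold change of ALAD for FDX2 loss at 3% O2 was -0.0211 without a filter, -1e-04 with at least 10 counts, -0.0077 with DESeq2's size factors, -0.0088 with its Wald test, -0.0213 with GC correction, and -0.014 and -0.0139 in the compared libraries without and with the block. COX15 there was -0.0073 without a filter and -9e-04 in the compared libraries. UROS for FDX2 loss at 20% O2 was -0.0031 without a filter, and the difference was -0.0036 for COX10 with at least 10 counts and -0.096 for PPOX with GC correction. With 1 library left out, UROS at 20% O2 ranged from -0.0154 to 0.0581. FDX2 loss at 3% O2 gave -0.0083 to 0.0237 for ALAD, -0.0046 to 0.043 for COX15 and -0.1261 to 0.0467 for CPOX. Oxygen with Doxy gave -0.0493 to 0.0124 for ALAD, -0.0222 to 0.0853 for COX10 and -0.0862 to 0.0038 for COX15, and the difference for COX10 was -0.0336 to 0.0797.

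FECH, PPOX and COX10 had 386 to 653 counts per library, so read sampling adds more to their spread than to that of UROD. The SE did not follow the counts, however. For FDX2 loss at 20% O2 it was 0.059 for FECH, 0.070 for PPOX and 0.074 for COX10, against 0.064 for UROD. It was largest for CPOX (0.080), which had 1720 to 2387 counts. Where 1 library is left out, its condition keeps only a pair of libraries.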

Other observations

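ALAS1 and FECH, the first and last enzymes of heme synthesis, were also set against each other within each library, as the ratio of their CPM per kb. This ratio was chosen after the values were seen and is the only one computed. It was 5.02 ± 0.316 in 20% O2 + Doxy, 6.76 ± 0.383 in 20% O2 wo Doxy, 5.84 ± 0.062 in 3% O2 + Doxy and 6.62 ± 0.14 in 3% O2 wo Doxy (SD, n = 3 each). Libraries without Doxy lay above those with Doxy at both oxygen levels, without overlap. An exact two-sided permutation test gave p = 0.1 for FDX2 loss at either oxygen level and for oxygen with Doxy, the smallest p that 3 against 3 allows, and p = 0.9 for oxygen without Doxy. Since 0.1 is the smallest p possible, none of the 4 tests could pass 0.05, so they cannot decide whether the ratio differed. The ratio uses only counts within one library, so scaling between libraries does not enter it.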
